A study of Homo sapiens with 3 samples.

Results

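The 8 box C/D small nucleolar RNAs (snoRNAs) described here, SNORD22 and SNORD25 to SNORD31, are carried in the introns of the host gene SNHG1. They were taken by name, as the entries U22 and U25 to U31 of the box C/D files, and make up 8 of 147 box C/D entries and 8 of 260 snoRNA entries with reads. The 3 libraries hold small RNA of HEK293, a long-established line from human embryonic kidney, and make 1 group with no treatment or genotype named, so all comparisons are between RNAs within a library. Separate cultures are not named in the labels, and p-values therefore measure the spread among 3 libraries that may be technical repeats. The snoRNA files hold no marker that could check the labelled cell line.

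Box C/D snoRNAs pair with ribosomal RNA (rRNA) through a guide stretch and carry the methyltransferase fibrillarin to the base that is to be 2′-O-methylated. Their boxes C and D, near the ends, bind the core proteins, and most of them in human cells are cut out of introns after splicing, when exonucleases trim the debranched intron up to the protein-bound RNA. The host SNHG1, also called UHG, encodes no protein, and its spliced exons are known as an unstable transcript. SNORD25, SNORD27 and SNORD28 guide methylation of the small-subunit rRNA, and SNORD26, SNORD29, SNORD30 and SNORD31 of the large-subunit rRNA. SNORD22 has no known methylation target and is needed for processing of the small-subunit rRNA precursor.

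SNHG1 lies on chromosome 11 at 62851988 to 62855914 on the minus strand (GRCh38, GENCODE 29, a processed transcript). The order of the members from its 5′ end is SNORD25, SNORD26, SNORD27, SNORD28, SNORD29, SNORD30, SNORD31 and SNORD22. SNORD26 to SNORD31 and SNORD22 lie in separate introns of an annotated SNHG1 transcript with 11 exons, and SNORD25 lies upstream of that transcript, in the first intron of another. In 6 of these introns 69 to 75 bases separate the snoRNA from the next exon: 75 for SNORD26, 73 for SNORD27, 69 for SNORD28, 70 for SNORD29, 72 for SNORD30 and 70 for SNORD22. SNORD25 lies 98 bases before the next exon and SNORD31 lies 210 bases before it. In that spacing SNORD31, the member with the most reads, stands apart from the others.

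The gene sequences are shown because the ends and fragments described below are counted from their boxes. Capitals mark the best match to TGATGA at the 5′ side (box C) and the last CTGA (box D). Letters are DNA, the RNA strand, from GENCODE 29 on GRCh38, cut at the RefSeq gene limits.
SNORD25 (chr11:62855565-62855631): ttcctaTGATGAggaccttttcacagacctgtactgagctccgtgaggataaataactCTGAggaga
SNORD26 (chr11:62855292-62855366): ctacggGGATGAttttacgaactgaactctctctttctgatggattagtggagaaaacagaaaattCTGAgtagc
SNORD27 (chr11:62855012-62855083): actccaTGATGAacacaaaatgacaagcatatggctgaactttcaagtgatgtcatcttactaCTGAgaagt
SNORD28 (chr11:62854621-62854695): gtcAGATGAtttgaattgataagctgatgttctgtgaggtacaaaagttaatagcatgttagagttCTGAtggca
SNORD29 (chr11:62853904-62853968): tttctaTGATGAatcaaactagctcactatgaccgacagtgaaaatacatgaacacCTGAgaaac
SNORD30 (chr11:62853663-62853732): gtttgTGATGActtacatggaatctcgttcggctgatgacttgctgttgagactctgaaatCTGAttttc
SNORD31 (chr11:62853326-62853393): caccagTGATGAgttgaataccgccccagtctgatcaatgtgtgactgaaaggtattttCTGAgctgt
SNORD22 (chr11:62852910-62853035): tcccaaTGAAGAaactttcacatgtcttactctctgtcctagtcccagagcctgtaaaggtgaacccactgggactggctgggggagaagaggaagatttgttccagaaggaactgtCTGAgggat

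In 5 of the 8 genes box C was an exact TGATGA within the first 15 bases, and in SNORD22, SNORD26 and SNORD28 it had 1 mismatch. The exact letters stood there in 60.0% of the 55 box C/D snoRNAs with a sequence of the entry's length, and CTGA stood within the last 15 bases in all 55. Each of the 8 genes has 5 bases after box D, and box C starts after 6 bases except in SNORD30 (5) and SNORD28 (3). SNORD22 is 126 nt long and the others 65 to 75 nt. For 7 members the highest position reached by any read equals the gene length, so read positions were laid on these sequences. The SNORD31 reads reach position 71 of their entry while the gene has 68 bases, so its positions are those of the deposited entry and its reads are shown without letters.

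Related genes of 3 members exist, and those of SNORD28 and SNORD31 are near copies. SNORD28B has 84.0% identity with SNORD28 and a longest shared run of 26 bases, and SNORD31B has 85.9% identity with SNORD31 and a run of 21 bases, so short reads of these members could come from either copy. A second snoRNA of the SNORD22 family (RF00099 in GENCODE) lies inside SNHG1 at 62854161 to 62854285, between SNORD29 and SNORD28. It shares 65.2% identity and no run longer than 8 bases with SNORD22, shorter than the shortest read of 18 nt.

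The members, all in introns of SNHG1, differed widely in level. SNORD31 had the highest share of counts, SNORD27 and SNORD30 followed, and SNORD28, a small-subunit guide, was lowest with 45 reads in all. Levels are shares of all snoRNA counts of a library, with 19989, 11958 and 19092 counts in libraries 1, 2 and 3. Most reads span nearly the whole RNA, so counts were not divided by length. Counting intervals given here are exact binomial (95%, Clopper-Pearson) and cover counting error only: no molecular identifiers were read, so several reads can stem from 1 molecule.

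SNORD31 had 1092, 415 and 551 reads in libraries 1, 2 and 3, which is 5.46%, 3.47% and 2.89% of the counts (mean 3.94% ± 1.4, SD, n = 3). SNORD27 had 531, 217 and 355 reads, 2.66%, 1.81% and 1.86% (mean 2.11% ± 0.47, SD, n = 3). Both were highest in library 1, where both values lay above the intervals of libraries 2 and 3. SNORD30 had 203, 126 and 259 reads and shares of 1.02%, 1.05% and 1.36% (mean 1.14% ± 0.19, SD, n = 3). SNORD29 had 110, 95 and 202 reads and shares of 0.550%, 0.794% and 1.06% (mean 0.801% ± 0.25, SD, n = 3). These 2 large-subunit guides, neighbours in the gene, were highest in library 3, unlike SNORD31.

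SNORD25 was the steadiest member, with 103, 71 and 110 reads at 0.515%, 0.594% and 0.576% (mean 0.562% ± 0.041, SD, n = 3), a range of 1.15-fold. SNORD26 had 98, 33 and 66 reads at 0.490%, 0.276% and 0.346% (mean 0.371% ± 0.11, SD, n = 3). SNORD22, the processing snoRNA, had 69, 26 and 85 reads at 0.345%, 0.217% and 0.445% (mean 0.336% ± 0.11, SD, n = 3), close to the median of 0.332% over 147 box C/D entries. SNORD28 had 31, 7 and 7 reads at 0.155%, 0.0585% and 0.0367% (mean 0.0834% ± 0.063, SD, n = 3). Its interval in library 1 (0.105% to 0.220%) lay above the values of libraries 2 and 3, and without library 1 its mean was 0.0476%. The members ranked 1 (SNORD31), 12, 25, 36, 49, 63, 73 and 119 (SNORD28) of 147 box C/D entries by mean share.

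**Figure D1:**
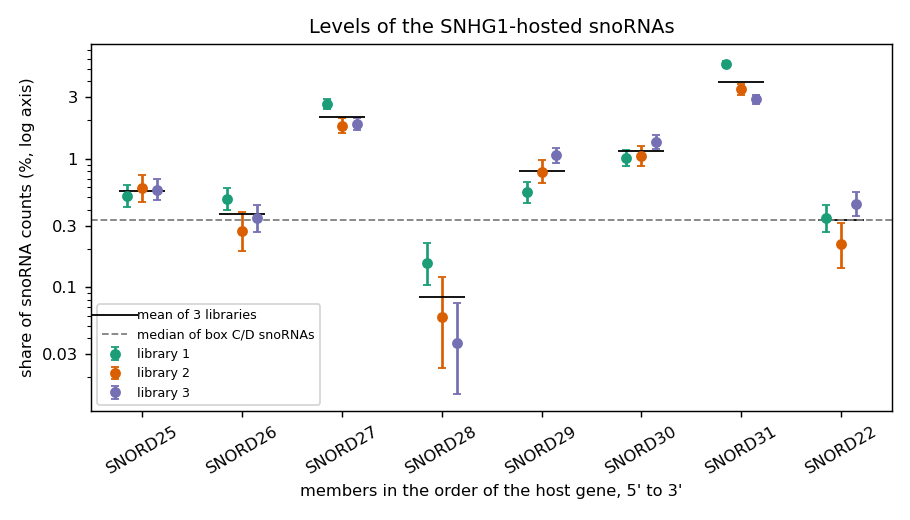
Share of all snoRNA counts (%, log axis) of each member in host gene order, with 1 point per library, exact 95% binomial intervals as bars, the mean as a black line and the box C/D median of 0.332% as a dashed line. SNORD31 (3.94% on average) and SNORD27 (2.11%) stand highest, and SNORD28 (0.0834%) stands below the dashed line in all 3 libraries.

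Along the gene the level did not run in 1 direction: it was high at SNORD27, lowest at SNORD28 and higher at each member from there to SNORD31. All 7 neighbour pairs had the same direction in 3 of 3 libraries. How often other pairs of box C/D snoRNAs kept their direction was not counted, so nothing particular to SNHG1 is read from it. SNORD27 stood above its neighbour SNORD28 by a mean log2 ratio of 4.91 ± 0.78 (SD, n = 3) and SNORD31 stood 11.8-fold above SNORD22 (3.56 ± 0.75, SD, n = 3). From SNORD26 to SNORD27 the log2 ratio was -2.53 ± 0.16 (SD, n = 3), the pair with the smallest spread. An exact permutation test that flips the signs of the log2 ratios (two-sided) gave p = 0.25 for each of the 7 pairs, also after Benjamini-Hochberg adjustment over the 7, and 0.25 is the smallest p that 3 libraries allow. The ranges over libraries were apart in 6 of 7 neighbour pairs, against 72.5% of all 9180 pairs of the 136 box C/D snoRNAs with counts in every library. Most pairs of box C/D snoRNAs were thus apart as well, and nothing particular to SNHG1 is read from the separation.

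In order of level, SNORD31 and SNORD27, SNORD27 and SNORD30, SNORD25 and SNORD26, and SNORD22 and SNORD28 had ranges that did not overlap. SNORD30 and SNORD29, SNORD29 and SNORD25, and SNORD26 and SNORD22 overlapped. The order of the last of these pairs turned without library 1. Dividing counts by entry length, a setting chosen after seeing the data, left the order of the 8 members as it was and gave SNORD22, the longest, a share of 0.206%.

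Within the summed members SNORD31 took 48.8%, 41.9% and 33.7% in libraries 1, 2 and 3, while SNORD29 took 4.92%, 9.60% and 12.4%. SNORD27 took 23.7%, 21.9% and 21.7%, a nearly constant part. The 8 members together had 2237, 990 and 1635 reads. The highest member stood 47.2-fold above the lowest by mean share, compared with 11.3-fold among the 10 snoRNAs of GAS5, another non-coding host with several snoRNAs. The lowest, SNORD28, rests on 45 reads, and the next lowest, SNORD22, had 0.336% against 3.94% for SNORD31. Over all 147 box C/D entries the highest stood 1130-fold above the lowest. The difference between SNHG1 and GAS5 was not tested. Among 118 other snoRNAs that had 10 or more counts in each library, SNORD49B, SNORD76 and SNORD4B had the profile over the 3 libraries most like that of the summed members, with largest differences of 0.058, 0.066 and 0.12 on the centred log2 scale. This likeness rests on 3 libraries only.

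On average over the libraries, most reads were nearly complete RNAs in 7 of the 8 members, with SNORD28 the exception. Reads spanning at least 90% of the entry, called near full-length here, made up 83.5% ± 5.1 of SNORD30 reads, 80.8% ± 4.2 of SNORD27 reads and 80.2% ± 2.7 of SNORD31 reads (SD, n = 3). The shares were 79.8% ± 11 for SNORD25, 74.1% ± 6.6 for SNORD22 and 68.1% ± 17 for SNORD26, which had 48.5% in library 2. SNORD29 had 55.8% ± 6.2 and SNORD28 35.0% ± 20. The median over the 74 other box C/D snoRNAs with at least 10 such reads in every library was 78.3%.

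The members fell into sets by where their 3′ ends lay. In SNORD27, SNORD29 and SNORD30 the commonest 3′ end was 2 bases after box D, 3 bases short of the gene's end. In SNORD25 and SNORD22 it was 5 bases after box D, at the gene's last base, and in SNORD26 it was 4 bases after. In SNORD28 it was also at the last base, but that rests on 12 near full-length reads, so SNORD28 is put in no set. The 5′ end was the first base of the gene in all 7 members placed on their sequence. Box C thus began after 6 bases of the read in SNORD22, SNORD25, SNORD26, SNORD27 and SNORD29, after 5 in SNORD30 and after 3 in SNORD28. Of 25 other box C/D snoRNAs with boxes and a sequence of the entry's length, 7 ended 2 bases after box D, 9 ended 4 after and 9 ended 5 after, so both positions were also common elsewhere.

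The commonest SNORD27 read ran from position 1 to 69 with 268, 117 and 156 reads of exactly that start, end and length. For SNORD30 it was 1 to 67 with 128, 79 and 162 reads, and for SNORD29 it was 1 to 62 with 29, 23 and 78 reads. SNORD25 and SNORD22 were most often read from the first base to the last, at 1 to 67 with 53, 29 and 58 reads and at 1 to 126 with 28, 11 and 35 reads. Of 143 near full-length SNORD26 reads 79 ended at 74, 44 at the last base, 75, and 20 before 74, and its commonest read, 1 to 74, had 29, 5 and 15 reads. SNORD31 was read from 3 to 67 of its entry with 567, 186 and 276 reads. SNORD28 had 12 near full-length reads in all, 6, 2 and 4 by library, too few to give its ends with precision.

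The mean number of bases lacking at the 3′ end hardly varied between libraries in SNORD27, SNORD29 and SNORD30. For these members it is counted from the annotated last base of the gene. Whether a longer RNA had been trimmed was not tested. Near full-length SNORD27 reads lacked 3.03, 3.03 and 3.05 bases there, SNORD30 reads 3.03, 3.01 and 3.04, and SNORD29 reads 2.67, 2.42 and 2.65. SNORD25 reads lacked 0.297, 0.271 and 0.326 bases, SNORD22 reads 0.426, 0.526 and 0.507, and SNORD26 reads 1.04, 0.938 and 0.943. The ranges of SNORD27, SNORD29 and SNORD30 do not overlap those of SNORD22, SNORD25 and SNORD26. That follows from sorting the members by these same 3′ ends and is no separate result. At the 5′ end the same 6 members lacked at most 0.812 bases in any library, a value reached by SNORD26 in library 2.

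**Figure D2:**
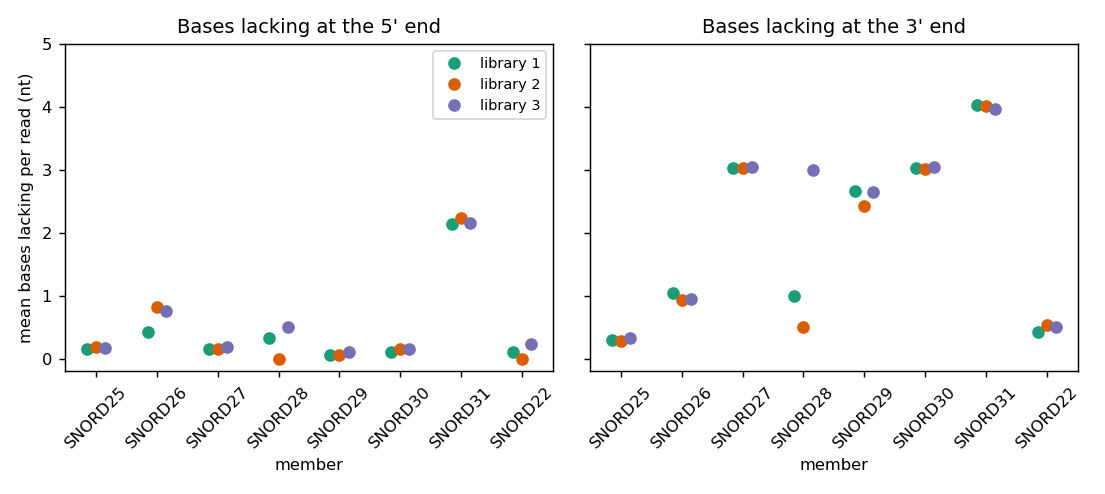
Mean number of bases (nt) that near full-length reads lack at the 5′ end (left) and the 3′ end (right) of the entry, with 1 point per member and library. At the 3′ end SNORD27, SNORD29 and SNORD30 sit between 2.42 and 3.05 and SNORD31 near 4, while SNORD22, SNORD25 and SNORD26 sit between 0.271 and 1.04; the SNORD28 points rest on 12 reads.

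Near full-length reads that lacked more bases at the 3′ end than at the 5′ end were compared with those that lacked more at the 5′ end by edgeR's quasi-likelihood test, fitted over all 81 box C/D snoRNAs with at least 10 near full-length reads in every library and adjusted by Benjamini-Hochberg at 0.05. All 7 members tested lacked more at the 3′ end, against 48.1% of all 81 snoRNAs. At the 5′ end 32.1% of the 81 lacked more. Bases were counted within the limits of each entry, so bases beyond them could not be seen. Each call thus depends on where those limits were set, and the direction for SNORD31 is not settled. With the RefSeq gene length in place of the highest position seen, 6 of the 7 members lacked more at the 3′ end and SNORD31 more at the 5′ end, against 54.4% and 27.9% of the 68 snoRNAs then tested. SNORD28 had too few reads to enter. The median log2 ratio was 5.62 over the 7 members, which is the value of SNORD31 itself, and 1.52 over the 81. With the gene length the medians were 2.30 and 1.67. By the highest position seen, 5 of the 10 GAS5-hosted snoRNAs lacked more at the 3′ end and 3 at the 5′ end, with a median of 1.77.

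SNORD29 had 223 reads lacking more at the 3′ end and 0 lacking more at the 5′ end, at least 74.3-fold more with a floor of 3 counts over the libraries. SNORD27 had 891 and 3, a ratio of 297 with a counting interval of 101 to 1440. SNORD30 had 490 and 4, and SNORD31 had 1625 and 31. SNORD26 had 83 and 17 (log2 ratio 2.23 ± 0.44, SE, edgeR adjusted p = 1.53e-06), SNORD25 had 51 and 10 (2.29 ± 0.56, adjusted p = 0.000112), and SNORD22 had 30 and 7 (2.09 ± 0.73, adjusted p = 0.00655). In SNORD25 and SNORD22 most near full-length reads were complete or lacked equally many bases at both ends. Without library 1, SNORD25 (edgeR adjusted p = 0.0506) and SNORD26 (0.0944) missed the threshold, and without library 3 SNORD22 did (0.0819). The SNORD31 call turned when the RefSeq gene length of 68 was used in place of position 71 (log2 ratio from 5.62 to -7.02). That setting kept the start positions of the entry, so it took all extra positions to lie at the 3′ end. Where they lie is not known, so neither sign settles the direction for SNORD31. Of its 2058 reads, 40 ended beyond position 68.

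Which end was more uniform also differed among the members. SNORD30 reads shared their commonest 5′ end in 91.3% ± 0.55 and their commonest 3′ end in 93.2% ± 5.1 of near full-length reads (SD, n = 3), so both ends were sharp. SNORD25 had 94.3% ± 1.1 at the 5′ end and 73.9% to 77.1% by library at the 3′ end, and SNORD22 had 95.2% ± 4.3 and 73.9% ± 9.3. SNORD29 had 93.1% ± 2.2 and 63.7% ± 10, and SNORD26 had 68.9% ± 11 and 50.2% ± 12, the lowest of the 7 members with at least 10 near full-length reads in every library. The 5′ end was the more uniform end in SNORD22, SNORD25, SNORD26 and SNORD29, 4 of these 7 members, and in 64.9% of the 74 others. SNORD31 had 82.0% ± 4.7 and 88.7% ± 3.5, and SNORD27 had 86.4% ± 3.1 and 87.3% ± 5.3.

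Short reads, of up to 40 nt, took very different parts of the members' reads, from 6.27% of SNORD31 to 29.5% of SNORD29 among those with at least 10 reads in every library. SNORD29 gave 33 short reads of 110, 34 of 95 and 46 of 202 in libraries 1, 2 and 3 (mean share 29.5% ± 6.5, SD, n = 3). SNORD31 gave 67, 36 and 22, 6.14%, 8.67% and 3.99% of its reads (mean 6.27% ± 2.3, SD, n = 3). The ranges of these 2 large-subunit guides do not overlap, but they were picked as the highest and lowest of these members. How often the ranges of other pairs were apart was not counted. The other members lay between, with means of 9.83% ± 3.2 for SNORD30, 11.5% ± 5.9 for SNORD22, 14.5% ± 6.6 for SNORD27, 19.2% ± 12 for SNORD25 and 25.1% ± 15 for SNORD26 (SD, n = 3 each).

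Library 2 held more short reads than the others over all box C/D snoRNAs, 25.2% against 11.5% in both other libraries, and in all 7 of these members it also had the highest share. The part of this library difference in single values was not tested. SNORD25 had 9.71%, 32.4% and 15.5%, and SNORD26 had 19.4%, 42.4% and 13.6%. SNORD28 had 24 short reads of 31 in library 1, 4 of 7 in library 2 and 1 of 7 in library 3, so its high share of 77.4% (95% interval 58.9% to 90.4%) belongs to library 1.

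**Figure D3:**
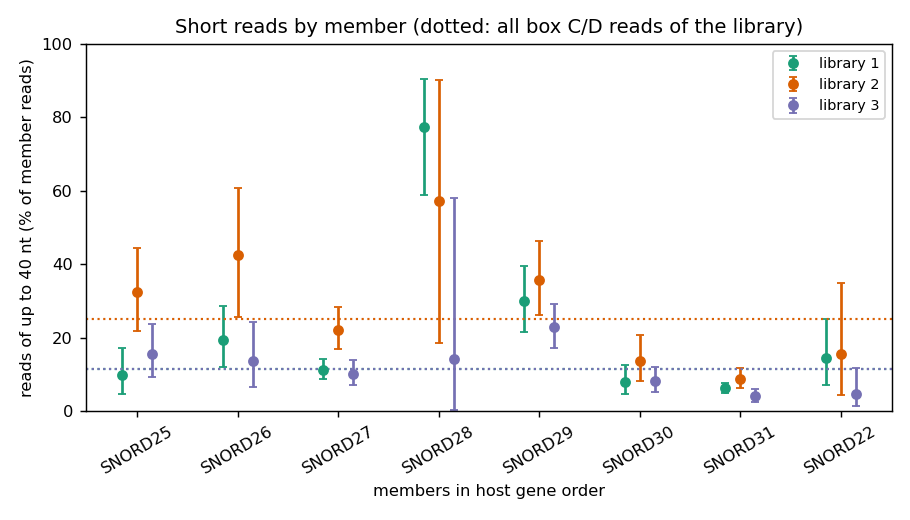
Share of each member's reads that are up to 40 nt long (%), with 1 point per library, exact 95% binomial intervals as bars and dotted lines at the share over all box C/D reads of the same library. SNORD29 lies above the dotted line of its library in all 3 libraries and SNORD31 below it in all 3, and the 2 right-hand SNORD28 points rest on 7 reads each.

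In the edgeR quasi-likelihood test of short against longer reads over 125 snoRNAs, which measures each ratio relative to the average snoRNA of the same libraries, SNORD29 had more short reads (log2 ratio 1.24 ± 0.27, SE, adjusted p = 0.0225) and SNORD31 fewer (-1.43 ± 0.27, adjusted p = 0.0202). Of all 125 snoRNAs 19.2% had more and 14.4% fewer, so 1 member of 7 in each direction is close to the background. The remaining members tested did not pass, with log2 ratios from -0.72 (SNORD30) to 0.80 (SNORD26) and a median over the 7 of -0.12, against -0.06 over all 125. SNORD29 missed the threshold without library 1 (log2 ratio 0.99, edgeR adjusted p = 0.150) and without library 3 (1.32, 0.0676). SNORD31 missed it without library 2 (-1.25, edgeR adjusted p = 0.0860) and without library 3 (-1.31, 0.0996). Of the 10 GAS5-hosted snoRNAs 5 had more short reads and 2 fewer.

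SNORD22 was set beside 4 other snoRNAs of pre-rRNA processing: SNORD3A (U3), SNORD13, SNORD14A and SNORD118 (U8). Short reads made up 57.5% ± 34, 42.4% ± 26, 55.5% ± 12 and 39.0% ± 17 of their reads (SD, n = 3), and all 4 had more than the average snoRNA in the edgeR test, with a median log2 ratio of 2.44. SNORD22 had 14.5%, 15.4% and 4.71% and a log2 ratio of -0.50 ± 0.49 (SE, edgeR adjusted p = 0.486). Its highest value, 15.4%, rests on 4 of 26 reads. The difference between SNORD22 and these 4 RNAs was not tested, and their lengths differ.

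Reads of 20 to 24 nt, the size of miRNAs, were few. Their mean share was 1.19% ± 0.79 in SNORD31, 1.96% ± 0.42 in SNORD30, 2.51% ± 1.8 in SNORD27, 2.69% ± 1.9 in SNORD25, 4.31% ± 2.9 in SNORD22, 5.91% ± 1.8 in SNORD26 and 7.90% ± 2.4 in SNORD29 (SD, n = 3). In SNORD29 these were 8, 10 and 12 reads. SNORD28 had 9, 1 and 1 such reads. The median over 101 other box C/D snoRNAs with at least 10 reads in every library was 2.78%.

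The short reads were mostly end pieces. A short read was counted as a 5′ or 3′ piece when it began or ended within 2 bases of the commonest near full-length end. Such pieces made up 96.5% of the short reads of SNORD27, 95.6% of SNORD29, 94.4% of SNORD31 and SNORD22, 92.6% of SNORD30, 85.7% of SNORD26, 75.9% of SNORD28 and 68.0% of SNORD25. The median over the members was 93.5%, and over 100 other box C/D snoRNAs with at least 10 short reads it was 91.1%. SNORD25 had 16 of its 50 short reads outside both classes, and its commonest short read stopped at position 64, 3 bases before the gene's end.

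The commonest short reads are shown with their positions, with all letters in lower case. Whether their ends mark cuts in the RNA was not tested. Positions count from the gene's first base, and coordinates are on GRCh38, minus strand.
SNORD29 1 to 28 (chr11:62853941-62853968): tttctatgatgaatcaaactagctcact
SNORD27 1 to 40 (chr11:62855044-62855083): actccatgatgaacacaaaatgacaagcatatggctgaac
SNORD30 39 to 67 (chr11:62853666-62853694): acttgctgttgagactctgaaatctgatt
SNORD25 38 to 64 (chr11:62855568-62855594): gctccgtgaggataaataactctgagg
SNORD26 2 to 27 (chr11:62855340-62855365): tacggggatgattttacgaactgaac
SNORD28 54 to 75 (chr11:62854621-62854642): gcatgttagagttctgatggca

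The SNORD29 piece from 1 to 28 had 9, 9 and 14 reads and was the most abundant short read of any member in total, with 32. It holds box C, and 35 of the 62 SNORD29 5′ pieces ended at position 28. The SNORD27 piece from 1 to 40 had 13, 6 and 1 reads, and 30 of its 96 5′ pieces ended there, at the limit of 40 nt set for short reads. Its commonest 3′ piece began at 42 (16 of 43). Longer 5′ pieces of SNORD27 were not counted, so whether the pieces from the left and the right meet cannot be told. The SNORD30 piece had 2, 5 and 2 reads, the SNORD25 piece 1, 5 and 2, and the SNORD26 piece 3, 1 and 0, all too few to order the libraries. The SNORD28 piece had 6, 0 and 0 reads, all in library 1, and these letters do not occur in SNORD28B. In SNORD31 the commonest short read ran from 3 to 25 of the entry with 7, 5 and 1 reads, and the commonest start of 3′ pieces was 40 (15 of 32). In SNORD22 the commonest short read, 1 to 19, had 2, 1 and 0 reads.

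Inside the RNA a further CTGA often stands where the internal box D of this class lies. The 4 letters were searched on the RNA strand only, before the last 15 bases, and overlap with other motifs was not considered. They occur there in 63.6% of the 55 box C/D snoRNAs with sequence, and not in SNORD29 or SNORD22. In SNORD27 the motif starts at position 35, and 31 of 43 3′ pieces (72.1%) began 1 to 6 bases after its last base. The counts were 11 of 18 in SNORD26, 12 of 24 in SNORD30, 4 of 15 in SNORD25 and 0 of 11 in SNORD28. Over these 5 members 52.3% of 111 3′ pieces began in that window, against 41.2% of 347 in 19 other box C/D snoRNAs with the motif and at least 5 such pieces. SNORD27 alone gave 31 of the 58 pieces of these members in the window. The share in single members ranged on both sides of the background, and no test was made.

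**Figure D4:**
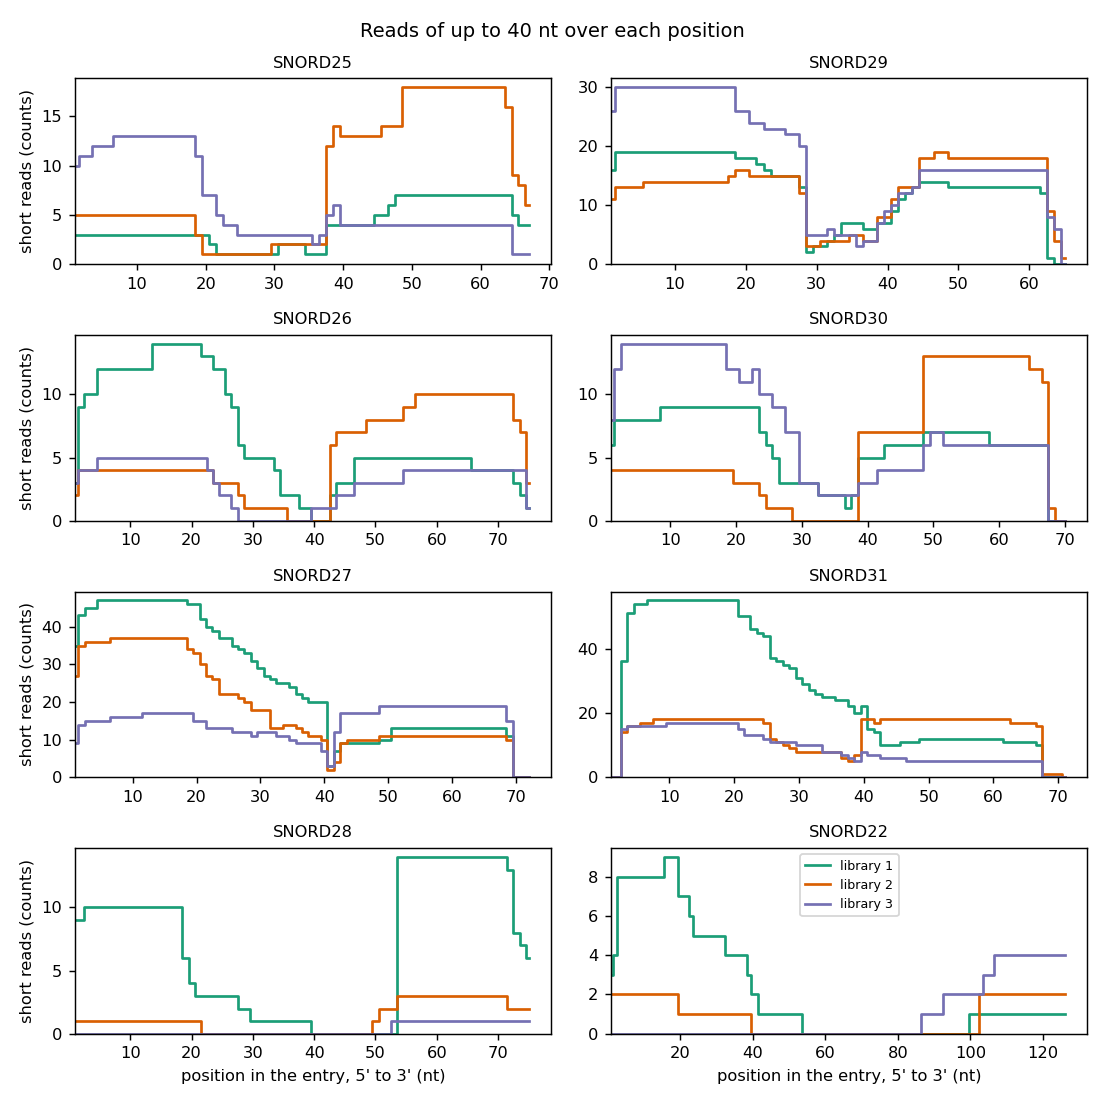
Number of reads of up to 40 nt that cover each position of the entry (nt, 5′ to 3′), 1 panel per member and 1 line per library, with its own count axis in each panel. SNORD29 drops after position 28 and SNORD27 after position 40, where the length limit stops any short read that starts at the first base. Because a short read cannot span these RNAs, pieces tied to the ends leave a low middle by construction.

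Neither side of the members gave more short reads in a way that passed the test. Short reads centred in the 5′ and 3′ part numbered 101 and 43 in SNORD27, 90 and 35 in SNORD31, 64 and 48 in SNORD29, 27 and 27 in SNORD30, 23 and 19 in SNORD26, 21 and 29 in SNORD25, 11 and 18 in SNORD28 and 11 and 7 in SNORD22. In edgeR's quasi-likelihood test over 133 snoRNAs with at least 10 short reads in all, 0 of 8 members were called, while 26.3% of the 133 were. On simulated counts this test recovered 66.7% of 4-fold differences, so a difference in single members can be missed. At an unadjusted edgeR p under 0.05 there were 2 of the 8 members, against 51 of the 133 snoRNAs, and DESeq2 called 0 members. SNORD31 came nearest, with a log2 ratio of 3′ to 5′ reads of -1.29 ± 0.61 (SE, edgeR adjusted p = 0.103), followed by SNORD27 with -1.16 ± 0.57 (0.121). In libraries 1 and 3 SNORD31 had 55 and 17 reads on the 5′ side against 12 and 5, and in library 2 it had 18 on each side. SNORD25 was on the 3′ side in library 2 (18 against 5) and on the 5′ side in library 3 (13 against 4), so its libraries went opposite ways.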

How the data were processed

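Per the labels' protocols, HEK293 RNA was extracted with phenol and chloroform, cleaned for small RNA on magnetic beads and made into libraries with an Ion Total RNA-Seq kit. The deposited files hold raw counts of reads by snoRNA entry, length, start and end, per the file headers. The submitters' processing notes name GRCh38.p10. The aligner, trimming and filters are not stated in the labels or headers. In the table of the whole series, 2 sample columns matched no title and were not used; for library 1 all 7 members it lists had the counts of the library file. Numbers 1 to 3 follow the deposition order.

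Of 260 entries, 246 were named through RefSeq (GRCh38.p14). The entry length was the highest position seen. Members have 0 reads on the opposite strand, and 19.3% of their reads have a length other than their span. With a floor of 3 counts, an unseen snoRNA could hold 0.0150%, 0.0251% and 0.0157% of counts in libraries 1, 2 and 3.

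edgeR 4.0.16 (R 4.3.3) was fitted over all snoRNAs with library as a block, with the same library size given to the paired parts for ends and position and TMM factors for short reads. Alternatives included DESeq2 1.42.0, other limits and each library left out. The tests were run on simulated counts first. Simulated 4-fold differences were recovered in 85% for ends, 100% for short-read share and 66.7% for position. Of the calls 10.5%, 8.82% and 4.35% were false in that order. At 16-fold 100%, 100% and 72.7% were recovered, and 0%, 6.06% and 4% of the calls were false. SciPy 1.17.1, pandas 2.3.3, Biopython 1.88 and matplotlib 3.10.9 were used. The 8 members are all named, each with its commonest read and commonest short read. Members and lists were chosen with earlier results of these data known.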

Additional observations from a re-analysis of the deposited data

How the results depend on the processing

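The summed members took 9.34% of counts, 8.42% to 9.88% with a library left out, 7.49% with each distinct sequence counted once and 11.4% among near full-length reads only. Of 7 members that lacked more at the 3′ end, 5 to 7 kept the call with a library left out and 4 of 4 tested with distinct sequences counted once, a setting that leaves fewer snoRNAs to test. With the annotated gene length SNORD31 reversed to -7.02, 6 of 7 members kept the call and their median was 2.30 in place of 5.62. Without a filter on low counts 2 of 8 members had more short reads and 2 had fewer. With distinct sequences counted once 0 and 0 did, and with no replicate block 1 and 0 did. With a library left out 0 to 1 had more and 0 to 1 fewer. No member passed the position test under any alternative run.

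The signs that turned were all of uncalled values, apart from SNORD31, and the cause was not tested. For short reads they were SNORD27 (0.37, distinct sequences), SNORD30 (0.0091, up to 30 nt) and SNORD22 (0.24, up to 0.5 of the entry). For position they were SNORD25 (-0.36 to 1.54 with a library left out), SNORD26 (-0.96 to 0.54), SNORD29 (0.51, distinct sequences), SNORD30 (-0.12 with no replicate block, -0.39 with distinct sequences and -0.68 to 0.63 with a library left out) and SNORD22 (0.023 up to 30 nt and 0.12 with DESeq2). With distinct sequences SNORD25 over SNORD26 turned to -0.37 and SNORD29 over SNORD30 to 0.35. No paired analysis between groups was possible because the labels give 1 group; the block is the library. Over all snoRNAs some counts of edgeR calls moved by more than 1.5 times. Calls of fewer short reads numbered 18, but 33 with no filter, 11 up to 30 nt, 6 without library 2 and 2 without library 3, and those of more short reads 24, but 14 without library 2. Position calls numbered 15 toward the 3′ end and 20 toward the 5′ end, but 9 and 10 with DESeq2, 8 and 6 without library 1, and 0 and 0 without library 2 or library 3; up to 30 nt the second was 13. Calls of more bases lacking at the 5′ end numbered 26, but 41 with no filter and 15 from 95% of the entry. With distinct sequences counted once there were 11 calls of more short reads, 1 and 2 of position, and 13 (from 39) and 6 of more bases lacking at the 3′ and 5′ end.
SNORD28, with 45 reads, was too low for the end and short-read tests unless the filter was dropped.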
